A study of Mus musculus with 16 samples.

Results

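Expression of 9 mouse complement genes was followed across 16 whole xenograft tumours. The genes were taken by symbol, and all 9 were among the 24681 gene symbols of the count table: C1qa, C1qb, C1qc, C2, C3, C4b, Cfb, Serping1 and C3ar1. The tumours grew in a mammary fat pad from AU565(pv) cells, a HER2-rich line of human breast cancer. The hosts were SCID mice, whose T and B cells do not mature. Treatment of established tumours (20 to 25 mm2) was by injection into the peritoneum, and tumours were taken on day 2. Each of the 4 groups held 4 mice, each the source of 1 library, and mice without a drug received its solvent. Vehicle mice received the solvents D5W, on days 0 and 1, and PBS. Trastuzumab mice received the antibody at 10 mg/kg with D5W, panobinostat mice received 15 mg/kg on days 0 and 1 with PBS, and combination mice received both drugs at these doses. Trastuzumab binds HER2 on tumour cells, and panobinostat blocks histone deacetylases. The antibody was given on day 0 per the treatment protocol and on day 1 per the series design, so its time of action before harvest is uncertain. Counts were made against mouse genes, and the share of human tumour reads among them was not measured. Libraries are named below by group and mouse number.

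Complement is a cascade of blood and tissue proteins that tags surfaces for removal. In the classical pathway C1q, built from the products of C1qa, C1qb and C1qc, binds antibody on a surface. The attached proteases C1r and C1s then cut C4 and C2, whose fragments join into an enzyme that cuts C3. In the alternative pathway factor B, the product of Cfb, takes the place of C2. C1 inhibitor, the product of Serping1, blocks C1r and C1s, and C3ar1 encodes the receptor for the fragment C3a. The liver makes most of the complement proteins in plasma, whereas C1q comes mainly from tissue macrophages and related cells. Fibroblasts, adipocytes and macrophages also make several of these proteins, and interferon gamma is a known inducer of many of them.

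The 9 genes lie in 5 places of the mouse genome, all on the minus strand (GRCm38, also called mm10, with GENCODE M21 genes). The C1q genes are neighbours on chromosome 4: C1qb at chr4:136880129-136886187, C1qc at chr4:136889804-136893065 and C1qa at chr4:136895917-136898803. Gaps of 3616 and 2851 bases separate them. On chromosome 17, Cfb (chr17:34856374-34862518) ends 85 bases from C2 (chr17:34862604-34898265), and C4b (chr17:34728380-34743882) lies near both. C3 is on the same chromosome at chr17:57203970-57228136. Serping1 is at chr2:84765387-84775444 and C3ar1 at chr6:122847138-122856161. RefSeq promoter sequences were at hand for 4 of the 9 members (C1qb, C1qc, C3 and C3ar1). Those of C1qb, C1qc and C3 are shown as the 250 bases before the RefSeq start on the minus strand of GRCm38.p6, 5′ to 3′. The first pair is shown because these neighbours varied together over the libraries, and C3 because it held the single motif match, in capitals. The RefSeq start of C1qc lies within the GENCODE gene given above, so part of the C1qc window lies inside that gene.
C1qb, chr4:136886201-136886450: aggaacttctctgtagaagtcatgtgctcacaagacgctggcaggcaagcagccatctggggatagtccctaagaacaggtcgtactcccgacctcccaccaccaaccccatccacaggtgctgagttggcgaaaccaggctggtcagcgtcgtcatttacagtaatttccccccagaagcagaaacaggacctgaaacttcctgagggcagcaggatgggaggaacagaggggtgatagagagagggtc
C1qc, chr4:136892915-136893164: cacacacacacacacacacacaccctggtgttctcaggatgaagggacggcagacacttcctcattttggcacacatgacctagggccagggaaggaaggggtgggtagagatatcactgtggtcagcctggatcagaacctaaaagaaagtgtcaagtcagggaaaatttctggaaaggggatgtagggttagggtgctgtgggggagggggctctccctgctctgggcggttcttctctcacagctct
C3, chr17:57228137-57228386: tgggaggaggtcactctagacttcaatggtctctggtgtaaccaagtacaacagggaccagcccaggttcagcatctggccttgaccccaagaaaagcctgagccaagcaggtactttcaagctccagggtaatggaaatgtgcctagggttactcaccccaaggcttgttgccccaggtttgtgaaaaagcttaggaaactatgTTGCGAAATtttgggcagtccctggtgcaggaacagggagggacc
Both strands of the 4 windows were searched for a GAS core (TTCNNNGAA), an ISRE core (GAAA and GAAA with any 2 bases between), an NF-kB motif (GGGA and TTTCC with any 1 base between) and a C/EBP motif (TTGCNNAAT). The C3 window held the C/EBP letters as TTGCGAAAT, 45 to 37 bases before the start. No other match was found. Of 32841 RefSeq mouse promoters of the same length, 7.02% held the GAS core, 2.98% the ISRE core, 0.356% the NF-kB motif and 2.11% the C/EBP motif. These are matches of letters and not measured binding sites.

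Total counts ran from 4848244 to 8140782 per library, and 15610 genes passed the filter on low counts, all 9 members among them. The members made up 0.429% of the counts in panobinostat 8 and 0.701% in vehicle 6, the lowest and highest shares. Among marker genes of the lymphocytes that SCID mice lack, Cd79a had at most 2 counts per library, and Cd3d and Cd3g at most 4. The 6 T cell genes in the table summed to 2.25 to 8.63 CPM per library. The 5 B cell genes summed to 73.5 to 155 CPM, and 2 of them passed the filter, so B cell markers as a list were not close to 0. The liver gene Alb had 5 to 110 counts per library. Macrophage genes were abundant: Csf1r, the receptor for the growth factor of macrophages, stood at 438 to 655 CPM (a gene's counts relative to the library total, on the standard CPM scale, with totals scaled by edgeR's trimmed mean of M values, TMM).

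The members spanned a wide range of levels. By mean CPM, C1qa ranked 63, C1qc 93, C1qb 98, C3 125 and C4b 135 among the 15610 genes tested. Serping1 ranked 326 and C3ar1 1075, whereas Cfb ranked 6333 and C2 6744. Per kilobase of exon, the median level over the 16 libraries was 1166 CPM for C1qa, 833 for C1qb and 507 for C1qc. It was 159 CPM per kilobase for Serping1, 136 for C3, 126 for C4b and 38.3 for C3ar1. Cfb at 10.8 and C2 at 7.84 CPM per kilobase were the lowest. With the longest transcript as the length in place of all exon bases, C1qc stood at 815 CPM per kilobase, close to C1qb. By these measures the adjoining genes C2 and Cfb were both low, and the 3 C1q genes were all high. The lengths used for C2 and Cfb include exon bases shared with another gene.

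Some of these levels are uncertain because reads can be shared. The annotated readthrough gene Gm20547 runs along Cfb and C2 on the same strand and covers 79.5% of the exon bases of Cfb and 42.8% of those of C2. It had 0 to 3 counts per library itself. Zbtb12, on the opposite strand, covers 4.16% of the exon bases of C2, and the library kit does not keep strand. How reads on shared exons were counted is not given in the sources used here. If they were set aside, the levels of Cfb and C2 are understated, and their place below the other members is uncertain. C4b and its copy C4a have 35.2% of their stretches of 50 bases and 16.5% of those of 100 bases in common, measured on the C4b transcript. C4a held 10.4% to 12.1% of the counts of the pair in each library. The other 6 members shared no stretch of even 50 bases with another annotated gene.

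**Figure D1:**
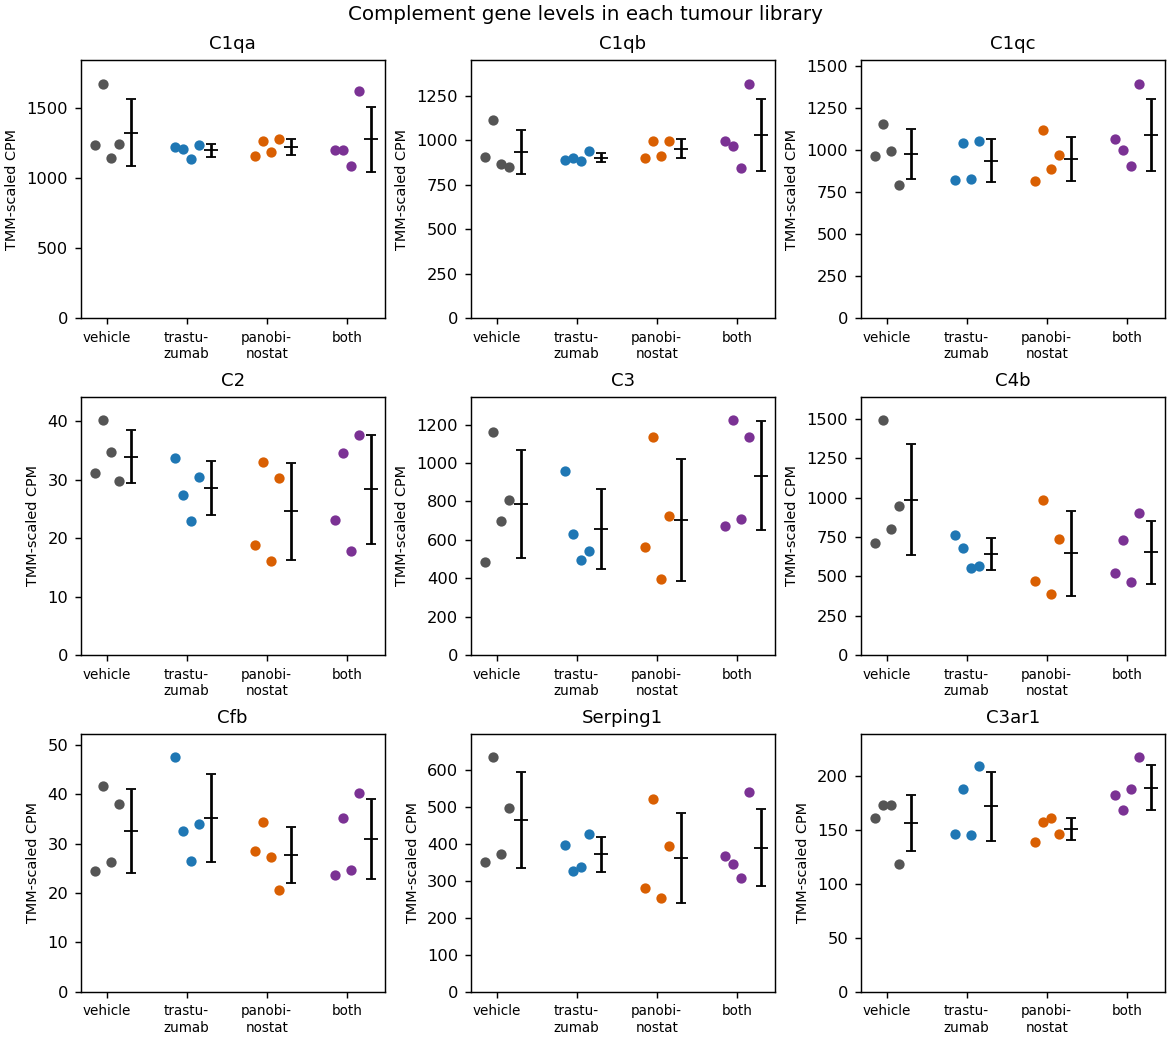
Level of each complement gene in each of the 16 libraries, in TMM-scaled CPM on linear axes from 0; points are libraries in order of mouse number, the bar beside them is the mean with 1 SD (n = 4), and "both" is the combination. The groups overlapped for every gene except C3ar1, whose 4 combination libraries (169 to 217 CPM) all lay above the 4 panobinostat libraries (139 to 161 CPM).

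No member passed the test in any comparison of treatments. edgeR's quasi-likelihood test, with Benjamini-Hochberg adjustment over 15610 genes and a call at an adjusted p under 0.05, called 0 of 9 members in all 8 comparisons made. DESeq2 and limma voom also called 0 in each. Over all genes the share called was 0.192% for panobinostat against vehicle, 0% for trastuzumab against vehicle and 2.2% for the combination against vehicle. It was 0% for the combination against panobinostat and 0.628% for the combination against trastuzumab. Averaged over the other drug, it was 3.02% for any panobinostat against none and 0.147% for any trastuzumab against none, and for the interaction of the drugs it was 0%. At an unadjusted p under 0.05, 1 member (C4b) passed for panobinostat against vehicle, beside 8.1% of all genes, and 1 (C4b again) for trastuzumab against vehicle, beside 3.52%. C3ar1 passed for the combination against panobinostat, beside 4.48%, and for any trastuzumab against none, beside 5.94%. In the other 4 comparisons 0 members passed, beside 13.8% for the combination against vehicle, 9.26% for the combination against trastuzumab, 13.5% for any panobinostat and 1.79% for the interaction. In whole tumours, fewer cells of a type and less RNA per cell cannot be told apart.

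Across the members, the median log2 change was -0.16 for panobinostat, -0.14 for trastuzumab and -0.05 for the combination, each against vehicle. The medians over all genes were 0.0076, 0.0017 and -0.0058. These 3 comparisons share the 4 vehicle libraries, of which vehicle 6 had the highest level of its group for 8 of the 9 members. Values were below 0 for 8, 7 and 5 of the 9 members. Against panobinostat alone, the combination had a median log2 change of 0.17, with all 9 values above 0 and all but that of C3ar1 with an interval that included 0. That all 9 were above 0 depended on single libraries. Without combination 22, C1qa (-0.073), C1qb (-0.024), C4b (-0.17) and Serping1 (-0.091) were below 0. C4b was also below 0 without panobinostat 4 (-0.082), panobinostat 8 (-0.14) or combination 11 (-0.019), and Serping1 without panobinostat 8 (-0.011).

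**Figure D2:**
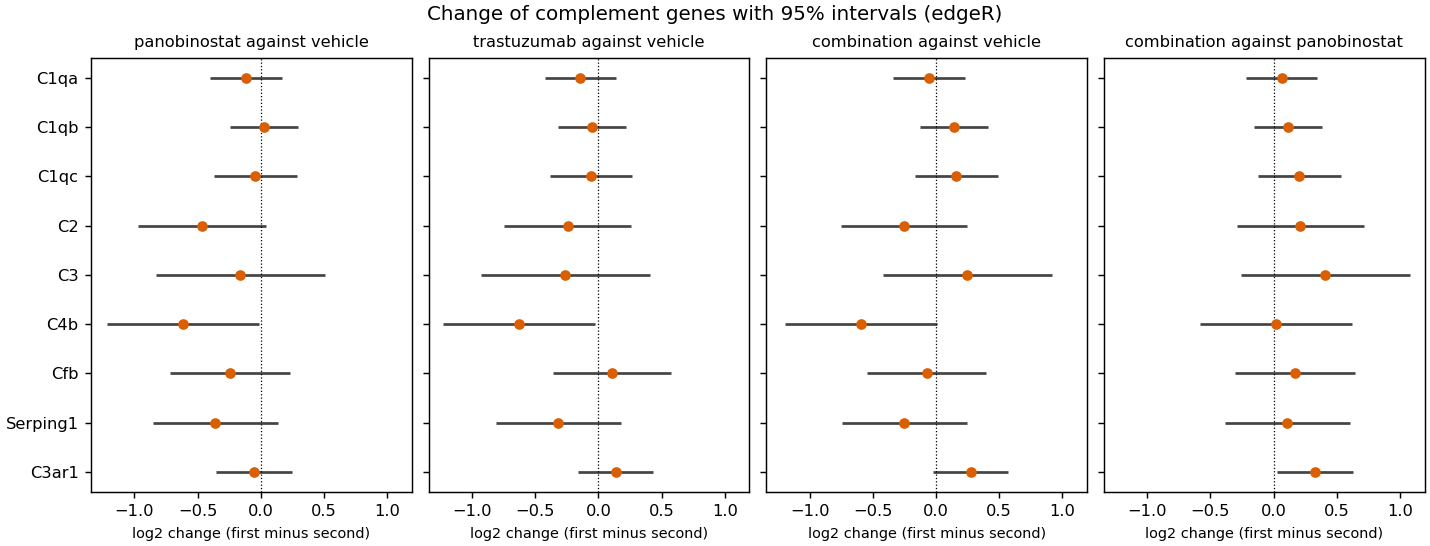
Log2 change of each complement gene (first group minus second) with its 95% interval, in 4 comparisons fitted by edgeR over all 16 libraries. No gene passed at an adjusted p under 0.05; C4b lay furthest below 0 against vehicle in all 3 panels, and the intervals of C3 and C4b were the widest.

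The 3 C1q chains stayed within narrow limits. C1qa had 1235, 1674, 1147 and 1241 CPM in vehicle 3, 6, 21 and 29, and 1219, 1207, 1133 and 1238 CPM in trastuzumab 12, 15, 20 and 24. In panobinostat 4, 7, 8 and 13 it had 1160, 1265, 1184 and 1277 CPM, and in combination 2, 11, 16 and 22 it had 1200, 1198, 1087 and 1619 CPM. Vehicle 6 and combination 22 stood above the other 14 libraries, which lay within 1087 to 1277 CPM, and the groups overlapped. The log2 change of C1qa against vehicle was -0.12 for panobinostat (95% interval -0.40 to 0.17), -0.14 for trastuzumab (-0.43 to 0.14) and -0.05 for the combination (-0.34 to 0.23).

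C1qb averaged 933 ± 123 CPM in vehicle, 902 ± 25.1 in trastuzumab, 951 ± 53.0 in panobinostat and 1031 ± 202 in combination tumours (SD, n = 4 each). Its log2 changes against vehicle were 0.03 (-0.24 to 0.30), -0.05 (-0.32 to 0.22) and 0.14 (-0.12 to 0.41) for panobinostat, trastuzumab and the combination. C1qc averaged 976 ± 149, 937 ± 129, 947 ± 129 and 1091 ± 214 CPM in the same order of groups. The log2 change of C1qc for the combination against vehicle was 0.16 (-0.16 to 0.49). Combination 22 had the highest level of both, 1318 CPM of C1qb and 1395 CPM of C1qc. Without it the log2 changes for the combination against vehicle were 0.0033 for C1qb and 0.02 for C1qc. For all 3 chains, the intervals of the 3 comparisons with vehicle reached no lower than -0.43 and no higher than 0.49 on the log2 scale.

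C4b, the classical pathway component cleaved by C1s, had the lowest log2 changes of the members against vehicle with all libraries in. It had 708, 1490, 798 and 949 CPM in vehicle 3, 6, 21 and 29, and 764, 678, 551 and 564 CPM in trastuzumab 12, 15, 20 and 24. The panobinostat libraries 4, 7, 8 and 13 had 471, 983, 390 and 735 CPM, and the combination libraries 2, 11, 16 and 22 had 523, 729, 463 and 899 CPM. Vehicle 6 was the highest library of all, and each treated group overlapped the vehicle range. Treated tumours held 0.654 (panobinostat), 0.648 (trastuzumab) and 0.663 (combination) of the vehicle level in the fit. The log2 changes were -0.61 (95% interval -1.21 to -0.01), -0.63 (-1.23 to -0.02) and -0.59 (-1.19 to 0.01), with edgeR adjusted p-values of 0.602, 1.00 and 0.368. Without vehicle 6 they were -0.35, -0.35 and -0.32, and C3 then lay further from vehicle with the combination, at 0.50. The copy C4a, which is near-identical in part and uncertain for that reason, had log2 changes of -0.56, -0.61 and -0.65 and was not called either.

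C2, the protease that pairs with C4b protein, had 90 to 298 counts per library. It averaged 33.9 ± 4.61 CPM in vehicle, 28.6 ± 4.60 in trastuzumab, 24.5 ± 8.33 in panobinostat and 28.3 ± 9.37 in combination tumours. The log2 change for panobinostat was -0.46 (-0.97 to 0.04, edgeR adjusted p = 0.660), with panobinostat 8 (16.1 CPM) and 4 (18.8 CPM) below every vehicle library and panobinostat 7 (33.0 CPM) and 13 (30.3 CPM) within the vehicle range of 29.8 to 40.1 CPM.

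C3, on which both pathways converge, varied widely within every group. It had 484, 1159, 698 and 805 CPM in vehicle 3, 6, 21 and 29 and 959, 630, 493 and 544 CPM in the trastuzumab libraries 12, 15, 20 and 24. Panobinostat 4, 7, 8 and 13 had 560.1, 1133, 396 and 725 CPM, and combination 2, 11, 16 and 22 had 672, 1222, 706 and 1138 CPM. High and low libraries occurred in each group. The log2 change was 0.25 for the combination against vehicle (-0.42 to 0.92), 0.41 against panobinostat (-0.26 to 1.08) and 0.51 against trastuzumab (-0.16 to 1.18). With 1 library left out, the value ran from 0.09 (without combination 11) to 0.50 (without vehicle 6) against vehicle and from 0.23 (without panobinostat 8) to 0.76 (without panobinostat 7) against panobinostat. Differences of up to 1.08 on the log2 scale thus lie within the interval of C3 for the combination against panobinostat.

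Cfb averaged 32.6 ± 8.55 CPM in vehicle, 35.1 ± 8.90 in trastuzumab, 27.7 ± 5.62 in panobinostat and 30.9 ± 8.10 in combination tumours, with 122 to 347 counts per library. Its log2 changes against vehicle were -0.24 (-0.72 to 0.23) for panobinostat, 0.11 (-0.36 to 0.58) for trastuzumab and -0.07 (-0.54 to 0.40) for the combination. The inhibitor gene Serping1 had 352, 634, 372 and 496 CPM in vehicle 3, 6, 21 and 29, and the group means of trastuzumab, panobinostat and combination tumours were 372 ± 47.1, 361 ± 122 and 389 ± 103 CPM. As for C4b, vehicle 6 was the highest and panobinostat 8 (252 CPM) the lowest library. The log2 changes of Serping1 were -0.36 (-0.85 to 0.13), -0.32 (-0.81 to 0.18) and -0.25 (-0.74 to 0.24) for panobinostat, trastuzumab and the combination, and without vehicle 6 they were -0.17, -0.13 and -0.06.

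C3ar1, the receptor for C3a, had 161, 173, 173 and 119 CPM in vehicle 3, 6, 21 and 29, and 146, 188, 145 and 209 CPM in trastuzumab 12, 15, 20 and 24. It had 139, 157, 161 and 146 CPM in panobinostat 4, 7, 8 and 13, and 183, 169, 188 and 217 CPM in combination 2, 11, 16 and 22. The 4 combination libraries all lay above the 4 panobinostat libraries, the one member and comparison of 7 in which groups did not overlap. Over all genes, 1.61% were higher without overlap in that comparison and 2.79% did not overlap in either direction. In the 6 other comparisons, with 0 members apart, that share was 5.23% for panobinostat, 2.3% for trastuzumab and 7.32% for the combination against vehicle. It was 5.07% for the combination against trastuzumab, 0.801% for any panobinostat and 0.0448% for any trastuzumab. The log2 change was 0.33 (0.03 to 0.62), a ratio of 1.25, with an edgeR adjusted p of 0.976. Averaged over panobinostat, trastuzumab had a log2 change of 0.23 (0.02 to 0.44, edgeR adjusted p = 0.786), and the vehicle and trastuzumab ranges overlapped. Neither difference passed the test.

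Spread between mice of one group divided the members. The SD of log2 CPM within groups was 0.18 for C1qa, 0.17 for C1qb, 0.22 for C1qc and 0.21 for C3ar1. Of the 500 genes nearest in level to each, 32.8% to 59.6% had a smaller spread, so these 4 members varied like other genes of their level. The SD was 0.51 for C3, 0.46 for C4b, 0.38 for C2, 0.37 for Serping1 and 0.35 for Cfb. For these, 88.8% to 96.6% of the 500 nearest genes had a smaller spread. The intervals given above are correspondingly wide for C3 and C4b.

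Interferon gamma induces many complement genes in other settings, and a list of 21 genes that it induces was set beside the members. That list was chosen with earlier results of these data known. For the combination against vehicle, 16 of the 21 listed genes rose and none fell, beside 2.2% of all genes called. The median log2 change of the list was 1.38. Cxcl9, a chemokine gene of this list, averaged 22.9 ± 8.48 CPM in vehicle and 123 ± 87.0 in combination tumours. In the same comparison the 9 complement members had a median of -0.05 and a highest value of 0.27. The list had 0 of 21 called for panobinostat against vehicle, with a median of 0.92, and 0 for trastuzumab against vehicle, with a median of 0.20. For any panobinostat against none, 16 of 21 rose, beside 3.02% of all genes called. The median of the list was then 0.99, beside -0.01 for the members. Combination 22 and 11 had the highest sums of the listed genes of their group, 3382 and 2471 CPM, and also the highest sums of NK cell genes of that group, 94.8 and 111 CPM. The difference between the list and the members was not tested.

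**Figure D3:**
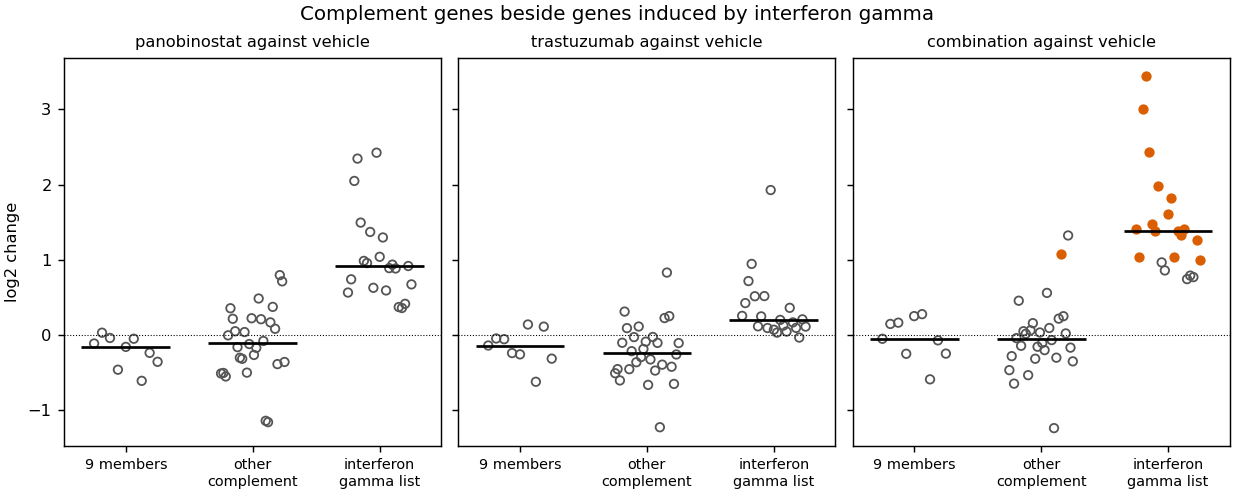
Log2 change against vehicle of the 9 members, 28 other complement genes and 21 genes induced by interferon gamma; each point is a gene, filled where called at an adjusted p under 0.05, and the line is the median. In the combination panel 16 interferon gamma genes and 1 other complement gene are filled, and no member is.

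The wider complement system was followed with a list of 51 further genes. The table held 40 of them, and 28 passed the filter on low counts. Those without enough reads included Masp2, the lectin pathway protease, and C7 and C8a, of the membrane attack complex. For panobinostat and for trastuzumab against vehicle 0 of the 28 were called, and for the combination against vehicle 1 was called, beside 2.2% of all genes. That gene was Itgax, which encodes the alpha chain of complement receptor CD11c/CD18 and also marks dendritic cells and some macrophages. It rose from 55.4 ± 15.5 CPM in vehicle to 116 ± 21.7 in combination tumours, a log2 change of 1.07 (SE 0.19, edgeR adjusted p = 0.00568). Its level was 98.2 ± 14.3 CPM with trastuzumab and 71.6 ± 11.8 with panobinostat. Itgax was also called for any trastuzumab against none, beside 0.147% of all genes, at 0.76 (SE 0.13, edgeR adjusted p = 0.0243). That call was lost when any of 8 libraries was left out (vehicle 6 and 29, trastuzumab 12 and 24, panobinostat 7, 8 and 13, combination 2). The dendritic cell list had 0 of 8 called for the combination against vehicle and a summed level of 64.2 to 98.2 CPM in vehicle and 62.1 to 102 CPM in combination tumours. The part of those cells in the Itgax result was not tested.

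Susd4, a membrane regulator, was called for any panobinostat against none, beside 3.02% of all genes, at 1.39 (SE 0.28, edgeR adjusted p = 0.0102). It was also called for the combination against trastuzumab, beside 0.628% of all genes, at 1.98 (edgeR adjusted p = 0.0389). It had only 2 to 22 counts per library, and the second call was lost under limma voom, with only the groups compared, and without any of 7 libraries (vehicle 29, all 4 trastuzumab, combination 2 and 11). No other gene of the list was called in these comparisons. The C1 proteases C1ra and C1s, targets of C1 inhibitor, had log2 changes against vehicle of -0.52, -0.51 and -0.47 (C1ra) and -0.51, -0.46 and -0.28 (C1s) for panobinostat, trastuzumab and the combination. Fcna, which encodes the lectin pathway recognition protein ficolin A, averaged 139 ± 70.9 CPM in vehicle and 59.2 ± 15.1, 62.8 ± 24.4 and 58.5 ± 27.3 CPM in trastuzumab, panobinostat and combination tumours. Its log2 change for the combination was -1.24 (SE 0.36, edgeR adjusted p = 0.0890). Cfd, the fat cell protease adipsin that activates factor B, ran from 368 to 2014 CPM over the libraries.

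Ratios of read counts within a library do not depend on the scaling of that library, and 6 such quantities were compared in 7 ways, 42 exact two-sided permutation tests in all. The ratio of C3 to C4b was chosen, like the others, after the levels were seen. It was 0.684, 0.778, 0.875 and 0.848 in vehicle 3, 6, 21 and 29, and 1.25, 0.928, 0.896 and 0.965 in trastuzumab 12, 15, 20 and 24. It was 1.19, 1.15, 1.02 and 0.986 in panobinostat 4, 7, 8 and 13, and 1.28, 1.68, 1.53 and 1.27 in combination 2, 11, 16 and 22. The groups averaged 0.796 ± 0.085, 1.01 ± 0.165, 1.09 ± 0.099 and 1.44 ± 0.199 (SD, n = 4). Each treated group lay wholly above vehicle, and the combination lay wholly above both single drugs. Each of these 5 exact permutation p-values was 0.0286, the smallest that 4 libraries against 4 can give, and 0.109 after adjustment over the 42 tests.

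Nearly all genes stood higher relative to C4b in treated than in vehicle tumours, 98.3% with panobinostat, 98.4% with trastuzumab and 97.5% with the combination. The ratio of a gene to C4b was higher with no overlap for 5.8% of the 15609 other genes for panobinostat against vehicle, 20% for trastuzumab and 16.5% for the combination. It was so for 0.192% of genes for the combination against panobinostat and for 2.07% for the combination against trastuzumab. For any panobinostat against none, the log2 ratio of C3 to C4b was 0.48 higher (exact permutation p = 0.00233, adjusted p = 0.0490), with overlap between the groups. That call was lost without any of 13 of the 16 libraries (vehicle 3, 6, 21 and 29, trastuzumab 15, 20 and 24, panobinostat 4 and 7, combination 2, 11, 16 and 22), with differences of 0.42 to 0.50 in those fits. Over all genes, 95.03% were higher relative to C4b in that comparison and 80.0% had a smaller difference than C3. Against vehicle, the share of genes with a smaller difference than C3 was 15.5% for panobinostat, 9.96% for trastuzumab and 83.7% for the combination. With panobinostat and with trastuzumab, C3 thus rose relative to C4b less than most genes. The share was 95.9% for the combination against panobinostat and 94.0% for the combination against trastuzumab.

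The ratio of C1qb to C1qa, 2 genes whose products are needed in equal numbers, varied little. It averaged 0.709 ± 0.041 in vehicle, 0.752 ± 0.021 in trastuzumab, 0.778 ± 0.008 in panobinostat and 0.807 ± 0.022 in combination tumours. The panobinostat and the combination libraries lay wholly above vehicle (exact permutation p = 0.0286, adjusted p = 0.109 each), beside 3.66% and 3.61% of genes relative to C1qa. For any panobinostat against none the log2 ratio was 0.12 higher (exact permutation p = 0.000622, adjusted p = 0.0261). The groups overlapped, since panobinostat 4 (0.776), panobinostat 8 (0.769) and combination 16 (0.777) lay just below trastuzumab 20 (0.778). The call was lost without combination 2, 11 or 22, with adjusted exact permutation p-values between 0.0587 and 0.0783. Over all genes, 73.3% had a smaller difference relative to C1qa in that comparison. The other 40 tests of ratios gave no adjusted p under 0.05, among them those of C1qc to C1qb, of C2 to Cfb, of Cfb to C4b and of the C4a share. The ratio of Cfb to C4b lay wholly above vehicle with trastuzumab (log2 difference 0.69) and the combination (0.51), beside 20% and 16.5% of genes. Each had an exact permutation p of 0.0286 and an adjusted p of 0.109. The log2 ratio of C3 to C4b was 0.37 higher for any trastuzumab against none (exact permutation p = 0.0315, adjusted p = 0.110).

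**Figure D4:**
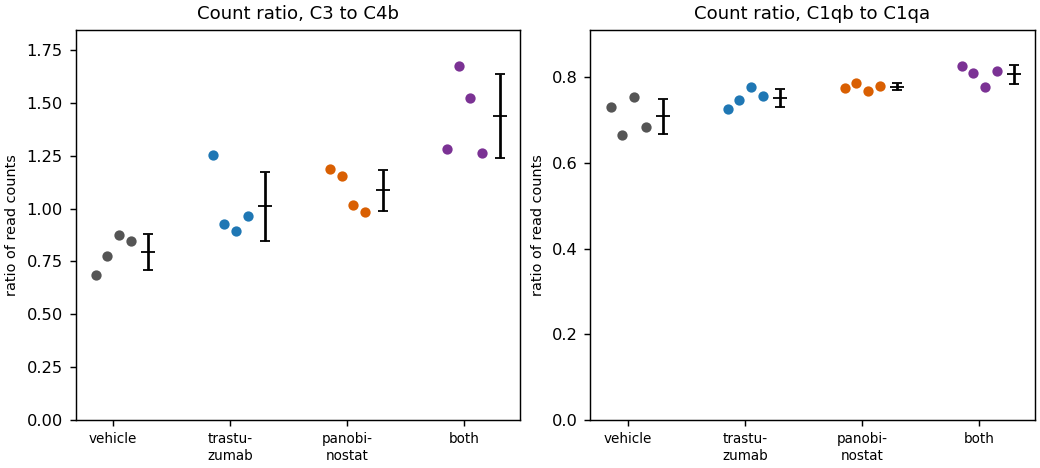
Ratio of read counts of C3 to C4b (left) and of C1qb to C1qa (right) in each library, on linear axes from 0; points are libraries, bars the mean with 1 SD (n = 4), and "both" is the combination. The C3 to C4b ratio ran from 0.684 to 0.875 in vehicle and from 1.27 to 1.68 in combination libraries.

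Many of the members varied together across the 16 libraries. Relations were computed on log2 CPM for the 36 pairs of members and for each member with 6 summed gene lists, 90 in all, with permutation tests adjusted over the 90. The libraries share their sequencing and scaling, and no batch is given in the labels. C4b and Serping1 had r = 0.89 and rho = 0.87 (permutation p = 1e-05, the smallest that 100000 permutations can give, and 2e-05, adjusted p = 0.0009 and 0.0018), with r = 0.79 without the 2 libraries furthest from the median and 0.89 for deviations from group means. C2 and C4b had r = 0.88 (permutation p = 2e-05, adjusted p = 0.0009, rho = 0.84), and C3 and C4b had r = 0.75 (permutation p = 0.00079, adjusted p = 0.0071, rho = 0.72) and 0.94 for deviations from group means. The 10 pairs among C3, C4b, Serping1, C2 and Cfb had r from 0.53 to 0.89.

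The C1q chains had r from 0.70 to 0.87 with each other. C1qb and C1qc, whose promoters are shown above, had r = 0.85 and rho = 0.77 (permutation p = 4e-05 and 0.00094, adjusted p = 0.0012 and 0.0141), and 0.67 without the 2 furthest libraries. C1qa and C1qb had r = 0.87 and rho = 0.71 (permutation p = 0.00035 and 0.0029, adjusted p = 0.0045 and 0.0261), and 0.60 without those 2. C1qa and C1qc had r = 0.70 and rho = 0.51 (permutation p = 0.00196 and 0.0483, adjusted p = 0.0160 and 0.145), and 0.33 without the 2 furthest. C1qa had a higher r with Serping1, at 0.78 (rho = 0.83, permutation p = 9e-05 and 0.00018, adjusted p = 0.0020 and 0.0040), and C1qa with C4b had 0.73 (rho = 0.72). The 15 pairs of a C1q chain with C3, C4b, Serping1, C2 or Cfb had r from 0.19 to 0.78, with a median of 0.53, so the chains were not a separate set. C3ar1 had r = 0.77 and rho = 0.74 with C1qc (permutation p = 0.00052 and 0.00157, adjusted p = 0.0052 and 0.0202). With C1qb it had r = 0.49 (permutation p = 0.0560, adjusted p = 0.129), and with C1qa 0.30 (permutation p = 0.266, adjusted p = 0.398), which was -0.20 without the 2 furthest libraries. Its r with C3, C4b, Serping1, C2 and Cfb lay between -0.05 and 0.15.

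**Figure D5:**
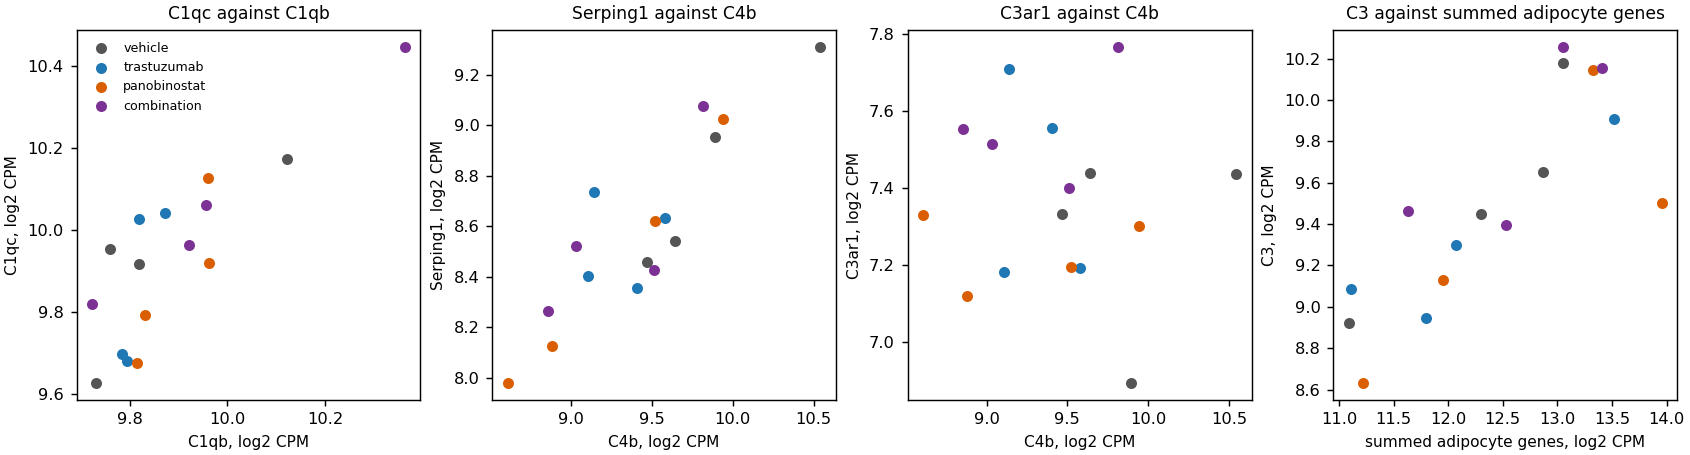
Levels in the 16 libraries, in log2 CPM, of C1qc against C1qb, Serping1 against C4b, C3ar1 against C4b and C3 against the summed adipocyte genes; each point is a library, coloured by group. Serping1 followed C4b (r = 0.89) and C3 followed the adipocyte sum (r = 0.81), whereas C3ar1 did not follow C4b (r = -0.05).

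Marker lists of other cell types were summed in each library. The 12 adipocyte genes, as of the fat pad, summed to 2182 to 8490 CPM in vehicle, 2213 to 11718 in trastuzumab, 2387 to 15898 in panobinostat and 3174 to 10856 in combination tumours. C3 followed this sum with r = 0.81 and rho = 0.82 (permutation p = 0.00015 and 0.00014, adjusted p = 0.0027 and 0.0040), with r = 0.79 without the 2 furthest libraries and 0.85 for deviations from group means. C4b followed it with r = 0.63 and rho = 0.68 (permutation p = 0.00788 and 0.00423, adjusted p = 0.0473 and 0.0346). For deviations from group means the r of C4b with it was 0.84. C2 and Serping1 each had r = 0.58 with the adipocyte sum (adjusted permutation p = 0.0726), and 0.76 and 0.69 for deviations. C3ar1 had r = -0.19, and -0.27 for deviations. The part of fat tissue in the levels of the members was not tested. The 12 fibroblast genes summed to 18017 to 27505 CPM in vehicle and 14081 to 17432 in combination tumours, and all 12 had values below 0 in each comparison with vehicle, with 0 called. For any panobinostat against none 2 of the 12 fell, beside 3.02% of all genes called, with a median of -0.37 over the list. The r of the fibroblast sum with C4b was 0.39 (permutation p = 0.133, adjusted p = 0.239). For the sum of 13 luminal HER2-type epithelium genes, r with C1qa was -0.72 (permutation p = 0.0027, adjusted p = 0.0174). Its rho was -0.45 (permutation p = 0.0846, adjusted p = 0.217), and r was -0.22 without the 2 furthest libraries. For the sum of 9 endothelial genes, the lowest adjusted permutation p of r with a member was 0.208, for C1qa.

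Of 19 macrophage genes, 3 rose for the combination against vehicle and none fell, beside 2.2% of all genes called. The median log2 change over the 19 genes was -0.09. They summed to 16407 to 20925 CPM in vehicle, 17261 to 21152 in trastuzumab, 14949 to 16598 in panobinostat and 16164 to 18549.5 in combination tumours. C3ar1 had r = 0.58 with this sum (permutation p = 0.0193, adjusted p = 0.0726) and 0.84 for deviations from group means, and C1qc had 0.54 (permutation p = 0.0296, adjusted p = 0.0859) and 0.90. Other lists moved more in the combination against vehicle, with its 2.2% of all genes called. All 5 erythroid genes fell, with a median of -2.49 and sums of 309.7 to 1125 CPM in vehicle and 78.1 to 120.1 in combination tumours. Of 7 neutrophil genes tested 3 fell, with a median of -0.71. The 10 listed neutrophil genes summed to 162 to 245 CPM in vehicle and 115 to 148 in combination tumours. Of 9 NK cell genes tested 2 rose, with a median of 0.98. The 10 listed NK cell genes summed to 19.6 to 36.0 CPM in vehicle and 39.3 to 111 in combination tumours. The part of these cells in the levels of the members was not tested. The part of macrophage number in the levels of C3ar1 and C1q was not tested. For the sum of interferon gamma genes, r with Cfb was 0.25 over all libraries and 0.84 for deviations from group means. With C3 it was 0.54 and 0.69. For deviations it was 0.70 with C1qa, 0.66 with C1qb, 0.68 with C2, 0.70 with C4b and 0.56 with Serping1. Over all libraries these were 0.34, 0.64, 0.06, 0.03 and 0.10. With C1qc and C3ar1 the r for deviations was 0.37 and -0.05. Values of r for deviations were not tested. The lowest adjusted permutation p of a member with that sum over the 16 libraries was 0.0501, for C1qb.

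Genes whose levels followed the members most closely were taken as the 5 with the highest r over the 16 libraries. For the mean of the C1q chains they were Gm12852 (r = 0.91), Fcgr2b (0.89), Ctsh (0.89), Rpl18-ps1 (0.89) and Lgals8 (0.89). Fcgr2b encodes the inhibitory receptor for antibody and Ctsh a lysosomal protease. For Serping1 they were Efemp1 (0.93), an extracellular matrix protein gene, Irak3 (0.92), Gstm2 (0.90), C1s (0.90), one of the proteases that C1 inhibitor blocks, and Ddr2 (0.90), a collagen receptor gene. C4b ranked 7 for Serping1. For C3 they included Cox15 (0.92), Cd99l2 (0.90), Cyp2f2 (0.89) and Poldip3 (0.89), and C4b ranked 528. By deviations from group means, however, C4a ranked 4 and C4b 5 for C3 (r = 0.94 each). For Cfb the highest were Mup15 (0.84), Pias4 (0.83), Akr1c14 (0.81), Mup9 (0.80) and Mup2 (0.79). By deviations from group means they were Fbxw17 (0.93), Tbc1d14 (0.90), Mlkl (0.89), Tsr3 (0.89) and Oasl2 (0.89). These are descriptions over 16 libraries of whole tumours, chosen as the highest of 15610 genes.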

How the data were processed

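RNA of 16 whole tumours was sequenced. Raw counts of reads by mouse gene, in a single table, were deposited by the authors. The submitters' processing notes name CASAVA 1.8.2, TopHat2, HTSeq and build mm10. Their settings and gene annotation: not given in the sources used here. Strand is not kept by the library kit in the labels. The 1327 symbols with a dot in all 8 panobinostat-treated libraries, no member among them, were left out. Counts of 23354 symbols were scaled by TMM, filtered by filterByExpr to 15610 genes and fitted in edgeR 4.0.16 (R 4.3.3) with 1 mean per group over all 16 libraries; the common biological coefficient of variation was 0.183. Each library is a separate mouse, and precision is set by the spread between 4 mice per group. Intervals are 95% intervals from the fit. DESeq2 1.42.0, limma 3.58.1 (voom), other scaling and filters, and fits without each library were alternatives. The code was tested on simulated data. Log2 CPM used a prior count of 2. Members, gene lists and tests were chosen with earlier results of these data known. Named genes are the members, listed genes that were called, those of the fixed lists whose role bears on a member, and the 5 of highest correlation. Some genes that this rule names are not reported here.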

Additional observations from a re-analysis of the deposited data

How the results depend on the processing

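The count of members called was 0 in all 173 alternative values, 1 for each comparison under each other setting or with each library left out. The 36 group means moved by less than 1 SD under total-count scaling. Of 405 member log2 changes under other settings 398 kept their direction. Exceptions were C2 for the combination against trastuzumab (0.00730 with total-count scaling, 0.013 with no filter, 0.0017 with dots read as 0, 0.0042 with only the groups compared), C4b in that comparison (-0.00648 with limma voom), C1qa for any panobinostat (0.012 with total-count scaling) and C2 for any trastuzumab (0.013 with total-count scaling). Leaving out 1 library turned the sign of 66 of 1152 values, none of them called. The ranges were, for panobinostat against vehicle, C1qa -0.178 to 0.014, C1qb -0.014 to 0.121, C1qc -0.131 to 0.045, C3 -0.484 to 0.085 and C3ar1 -0.165 to 0.00095. For trastuzumab against vehicle they were C1qb -0.091 to 0.049, C1qc -0.147 to 0.034 and Cfb -0.084 to 0.253, and for the combination against vehicle C1qa -0.190 to 0.086 and Cfb -0.230 to 0.074. For the combination against panobinostat they were C1qa -0.073 to 0.149, C1qb -0.024 to 0.218, C4b -0.174 to 0.316 and Serping1 -0.091 to 0.356. Against trastuzumab they were C1qa -0.046 to 0.169, C2 -0.180 to 0.163, C4b -0.162 to 0.177, Cfb -0.339 to 0.015 and Serping1 -0.133 to 0.176. For any panobinostat they were C1qa -0.081 to 0.053 and C3ar1 -0.014 to 0.102, for any trastuzumab C1qa -0.108 to 0.032, C1qb -0.037 to 0.090, C2 -0.101 to 0.086, C3 -0.039 to 0.254 and Serping1 -0.204 to 0.025, and for the interaction Cfb -0.098 to 0.273. The C3 to C4b difference for any panobinostat ranged from 0.419 to 0.551 and the C1qb to C1qa difference from 0.0995 to 0.132. Both ratios were added after the data were seen, and the cause of the lost calls was not tested. Calls over all genes depended on the tool: for panobinostat against vehicle 30 by edgeR, 147 by DESeq2, 3 by limma voom, 46 with total-count scaling, 58 with only the groups compared and 3 to 72 with a library left out. For trastuzumab against vehicle they were 0, 12 by DESeq2, 1 with only the groups compared and 1 without combination 22. For the combination they were 343, 525 by DESeq2, 127 with only the groups compared and 202 to 395 with a library left out. For the combination against panobinostat they were 0 and 14 by DESeq2. For any panobinostat they were 471, 612 by DESeq2, 428 by limma voom and 329 to 480 with a library left out. For the combination against trastuzumab they were 98, 219 by DESeq2, 11 by limma voom, 5 with only the groups compared and 3 to 179 with a library left out, and for any trastuzumab 23, 59 by DESeq2 and 2 to 33 with a library left out. Of the other 28 complement genes DESeq2 called 1 for trastuzumab against vehicle, 2 for the combination and 2 for any panobinostat. No paired analysis was possible because each mouse number occurs once. Of the members, C2 and Cfb had the fewest counts, 90 to 347 per library.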
